A study of Mus musculus with 12 samples.

Results

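Transcripts of 30 genes of cholesterol and fatty acid metabolism were counted in single cells from MC38 tumors, and all 30 were among the 27457 gene symbols measured. They were fixed as a list of names, with earlier results of these data known: 18 enzymes of the sterol synthesis pathway, 3 genes of its control by SREBP (Insig1, Srebf1 and Srebf2), 4 genes of the liver X receptor (LXR) and sterol export (Nr1h3, Abca1, Abcg1 and Mylip), 2 of sterol ester storage and transfer (Soat1 and Stard4), and 3 of fatty acid synthesis (Fasn, Scd1 and Scd2). MC38, a mouse colon carcinoma line of C57BL/6 origin, was grown under the skin of female mice aged 8 to 12 weeks. Hosts were C57BL/6J (B6) or the F1 offspring of C57BL/6J and 1 Collaborative Cross strain (CC001/UncJ, CC002/UncJ, CC007/UncJ, CC036/UncJ, CC075/UncJ, CC079/TauUncJ or CC080/TauUncJ), so that every host carried a B6 genome copy and the tumor line was the same in all. At a tumor size of 75 to 110 mm3 each mouse received 200 µg of a PD-1 blocking antibody (aPD1) or its isotype control, and 48 h later the tumors were removed, frozen and, once dissociated, sorted to 90% CD45+ and 10% CD45- cells. The study classed CC001, CC002 and CC075 hosts as responders and CC036, CC079 and CC080 hosts as non-responders from tumor growth in other animals, and B6 and CC007 belonged to neither class here.

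The table held 93126 cells from 48 tumors in 12 hashtag-pooled libraries. A library pooled 4 tumors, 1 per antibody from each of 2 hosts. There were 10 isotype and 10 aPD1 tumors of responder strains, 9 and 9 of non-responder strains and 5 and 5 of B6 and CC007. Tumors held 53 to 3082 cells and 88816 to 17713491 unique molecular identifiers (UMIs, each marking 1 captured transcript). Isotype and aPD1 tumors carried different hashtags, so an effect of the hashtag and of treatment cannot be told apart. Of all cells, 10.9% carried a barcode also seen in another library, and 2 CC080 tumors (isotype in pool 3, aPD1 in pool 4) carried 1 animal identifier. The deposited cluster numbers were named from marker genes. The 9 clusters with 55995 cells were called monocyte/macrophage (written macrophage below) and 12021 cells fell into T/NK clusters. Cluster 5, with 12064 cells, met the macrophage marker count but was led by Ighg2c, Hbb-bs, Hba-a1 and Igkc. It was left without a name and out of the macrophage sums. Ccr2, Clec5a and C3 were also among its leading genes, and the study counts subcluster 5 among its macrophages. The macrophage sums here therefore leave out cells that the study calls macrophages. Cluster 20 was led by Kirrel3, Tenm3 and Rhox5 and had the highest Shisal2b, and met no marker rule. Cluster 25 met the rule for MC38 or epithelial markers, but immunoglobulin genes stood with keratins among its leading genes, so both are called by number.

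Cells make cholesterol from acetyl-CoA through mevalonate, isoprenoids, squalene and lanosterol. SREBP2, the product of Srebf2, turns on nearly every enzyme of this route when membranes are low in sterol, and INSIG1 holds SREBP in the endoplasmic reticulum when sterol is plentiful. SREBP1 drives fatty acid synthesis as well. Oxidised sterols activate LXR, which turns on the exporters ABCA1 and ABCG1 and the ubiquitin ligase MYLIP, so that synthesis and export are commonly seen as opposite arms. Macrophages, which take up dead cells and their membranes, depend on this export.

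Promoter sequences are shown for the 3 members in which the core of the sterol regulatory element, the site that SREBP binds, was found. The letters TCACNCCA were searched on both strands of 300 bases (250 before to 50 after the RefSeq start, build GRCm38.p6), and 23 of the 30 members had at least 1 such promoter. Hmgcs1, Msmo1 and Srebf2 held the core, each on the strand of the gene, against 4.97% of the 27025 genes with a promoter. The CCAAT box, which binds NF-Y, a partner of SREBP, was in 20 of the 23 members and in 41.1% of all genes. The other 20 members had no TCACNCCA in this window, which says only that these letters are absent there. The promoters lay at chr13:119690101-119690400, plus strand, chr8:64733529-64733828, minus strand and chr15:82147019-82147318, plus strand. Capitals mark TCACNCCA and CCAAT, or their reverse complements, and the motifs did not overlap.
Hmgcs1: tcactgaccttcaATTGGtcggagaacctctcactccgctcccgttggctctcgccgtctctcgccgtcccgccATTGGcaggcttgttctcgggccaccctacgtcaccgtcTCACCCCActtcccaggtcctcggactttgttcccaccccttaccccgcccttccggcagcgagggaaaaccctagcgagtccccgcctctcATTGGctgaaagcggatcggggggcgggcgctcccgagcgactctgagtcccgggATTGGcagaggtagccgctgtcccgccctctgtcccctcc
Msmo1: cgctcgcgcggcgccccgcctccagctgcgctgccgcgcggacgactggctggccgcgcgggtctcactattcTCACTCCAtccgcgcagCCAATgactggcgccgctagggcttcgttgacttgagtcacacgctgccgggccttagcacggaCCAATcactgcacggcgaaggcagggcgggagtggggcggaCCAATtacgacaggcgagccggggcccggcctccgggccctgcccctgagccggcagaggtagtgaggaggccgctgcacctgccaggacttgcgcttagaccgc
Srebf2: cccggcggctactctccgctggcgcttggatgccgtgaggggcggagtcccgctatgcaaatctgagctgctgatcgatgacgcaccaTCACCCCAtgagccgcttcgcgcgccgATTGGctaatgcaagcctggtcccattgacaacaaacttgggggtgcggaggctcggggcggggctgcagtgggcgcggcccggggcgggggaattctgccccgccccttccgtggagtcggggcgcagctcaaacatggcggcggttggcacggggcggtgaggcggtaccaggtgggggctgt

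The first comparison asked which cells carried these transcripts. Since the clusters were made from the same cells, the levels are a description. Levels are given as counts per 1000000 UMIs (CPM) of all cells of a cluster. The sterol synthesis genes, summed, were highest in the plasmacytoid dendritic cells (pDC, cluster 18) at 1080 CPM, then in cluster 20 at 726 CPM and in migratory dendritic cells (cluster 11) at 606 CPM. The order of the last 2 turned with the mean over tumors of at least 20 such cells, 518 ± 249 CPM (SD, n = 41) in cluster 20 and 601 ± 197 CPM (SD, n = 39) in migratory dendritic cells. In the 6 tumors with at least 20 pDC the sum was above that of macrophages of the same tumor in 6 of 6, with medians of 1173 and 315 CPM. Migratory dendritic cells were above macrophages in 39 of 39 tumors, type 1 conventional dendritic cells (cDC1) in 27 of 27 and type 2 (cDC2) in 44 of 44, while cluster 20 was above macrophages in 31 of 41, with medians of 450 and 287 CPM. T/NK cells and macrophages did not separate, with T/NK cells higher in 23 of 47 tumors. The sums did not hold for every enzyme. In migratory dendritic cells Pmvk had a median of 209 CPM against 31.3 CPM in macrophages, while Ebp was above macrophages in 2 and Dhcr7 in 6 of 39 tumors. In cDC1 Fdps had a median of 121 CPM against 33.8 CPM, while Ebp was above macrophages in 7 and Mvd in 9 of 27 tumors.

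Within the pathway the clusters differed by gene. Cluster 18 had the highest level of 11 of the 18 enzymes, among them Fdps, which makes farnesyl diphosphate, at 182 CPM, Idi1, the isopentenyl diphosphate isomerase, at 145 CPM, and Msmo1, a methylsterol oxidase, at 138 CPM. Pmvk, which phosphorylates phosphomevalonate, stood apart: it was highest in migratory dendritic cells at 214 CPM, while Hmgcs1, which makes HMG-CoA, was highest in pDC at 116 CPM. The SREBP genes had summed levels of 252 CPM in pDC, 157 CPM in cDC1 and 144 CPM in macrophage cluster 19. Srebf2 itself reached 144 CPM and Insig1 86.4 CPM in pDC. The granulocytic cluster 16 was lowest of all clusters for the sterol synthesis sum, at 137 CPM, and its cells also held the fewest UMIs, with a median of 815.

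The LXR and export genes had another distribution. Their sum was highest in macrophage clusters 19, 9 and 27 at 691, 497 and 401 CPM. It was lower in T/NK cells than in macrophages of the same tumor in 47 of 47 tumors, with medians of 51.5 and 247 CPM. Abca1, which exports cholesterol to apolipoprotein acceptors, stood at 145 CPM in macrophages and at 11.2 CPM in T/NK cells. Nr1h3, which encodes LXRα, stood at 11.8 and 0.774 CPM. Among T/NK clusters both were highest in cluster 12, led by Hbb-bs, Hba-a1 and Hba-a2, at 77.1 and 5.06 CPM. In the other T/NK clusters Abca1 ran from 1.36 to 27.9 CPM. Abca1 peaked at 490 CPM in cluster 19, whose cells held a median of 1225 UMIs, 0.36 of the median of their tumors. Abcg1, the other sterol exporter, was highest in the granulocytic cluster at 123 CPM.

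Ester storage and fatty acid genes again divided the cells. Soat1, which esterifies cholesterol for storage, was higher in macrophages than in T/NK cells in 47 of 47 tumors and was highest in cluster 27 at 241 CPM. Stard4, a carrier of free sterol, went the other way, above macrophages in T/NK cells in 45 of 47 tumors and highest in T/NK cluster 1 at 68.4 CPM. Fatty acid synthesis genes summed to 307 CPM in cluster 20, 147 CPM in cluster 25 and 82.3 CPM in fibroblasts. Fasn, the fatty acid synthase, was higher in T/NK cells than in macrophages in 46 of 47 tumors. Scd1, a desaturase, was highest in clusters 25 and 20, at 77.9 and 52.9 CPM, and stood at 0.688 CPM in macrophages, whereas Scd2 reached 191 CPM in cluster 20 and 19.3 CPM in macrophages.

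**Figure D1:**
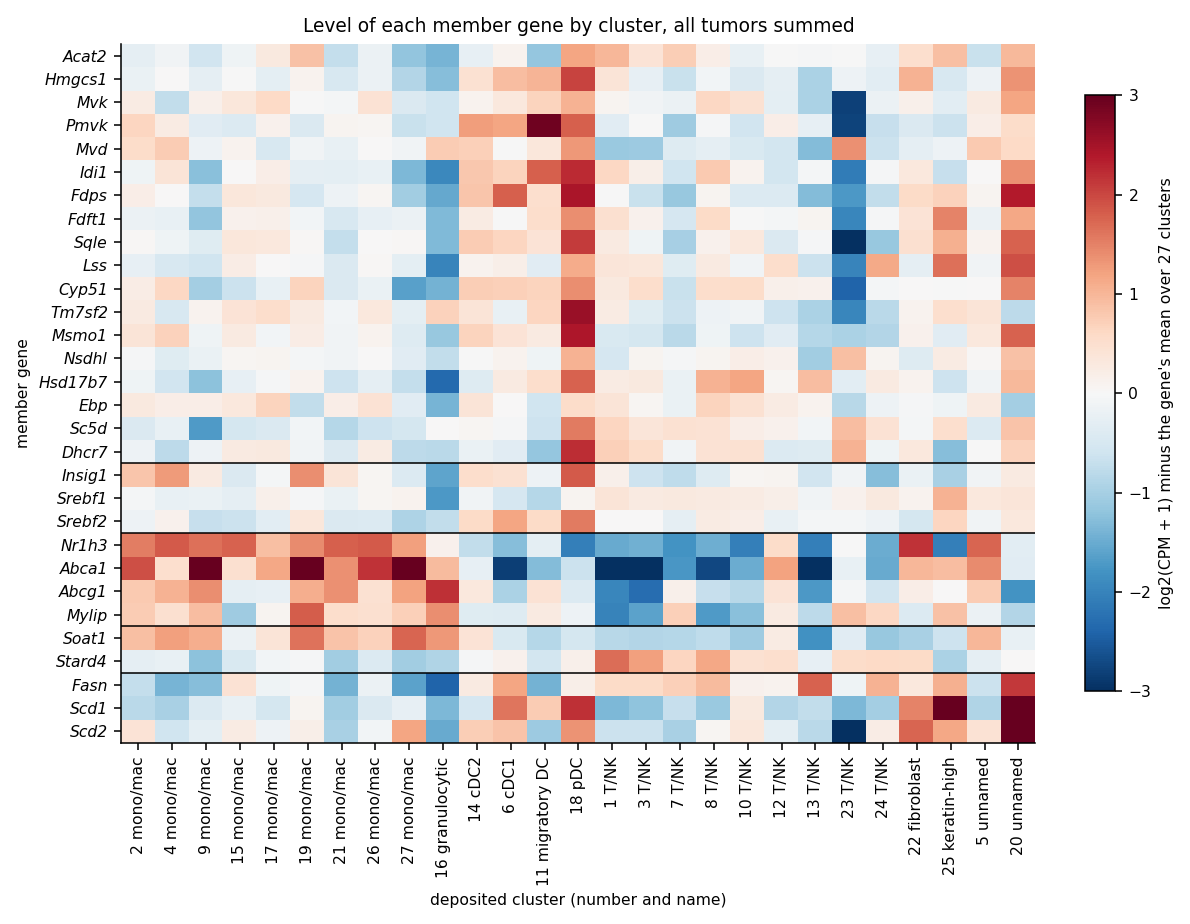
Level of the 30 genes (rows, lines divide the 5 roles) in the 27 clusters (columns), as log2(CPM + 1) minus the mean of that gene over the 27 clusters. Sterol synthesis genes are mostly red in pDC cluster 18 and in cluster 20, and the LXR and export genes are red in macrophage columns, other than Abcg1 in clusters 15 and 17 and Mylip in cluster 15, and blue in most T/NK columns.

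The second comparison asked whether macrophages of responder and non-responder strains differed. Of the 29 members that passed the low-count filter 10 differed, and all 10 were lower in responder strains: Srebf2, Insig1, Hmgcs1, Mvd, Idi1, Sqle, Cyp51, Msmo1, Hsd17b7 and Fasn (edgeR quasi-likelihood test, 20 against 18 tumors, adjusted p under 0.05 over 11398 genes). In the same test 5.98% of all genes were called, 3.61% as higher and 2.38% as lower in responders. By role, 7 of 18 sterol synthesis enzymes, 2 of 3 SREBP genes, 1 of 2 fatty acid genes tested, 0 of 4 LXR and export genes and 0 of 2 storage and transfer genes fell. A total of 22 of the 29 had a negative log2 fold change, and the median was -0.27, against -0.01 over all genes tested. Scd1 did not pass the filter, with 0 to 1.68 CPM in non-responder and 0 to 2.28 CPM in responder tumors. Of 31 other genes of the pathway that were tested, 2 were called, both lower, beside the 5.98% of all genes. Among them was Elovl6, a fatty acid elongase, at a log2 fold change of -0.73 ± 0.13 (SE, edgeR adjusted p = 0.00032). These 31 genes did not move as a group, with 16 positive and 15 negative log2 fold changes and a median of 0.001.

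Srebf2, the regulator of the pathway, showed the clearest separation. Its macrophage level ran from 35.3 to 67.0 CPM with a median of 42.7 in the 18 non-responder tumors, and from 19.2 to 43.8 CPM with a median of 30.6 in the 20 responder tumors. Of the 20 responder tumors 15 lay below every non-responder tumor, and 18 of the 18 non-responder tumors lay above the responder median. The log2 fold change was -0.50 ± 0.09 (SE, edgeR adjusted p = 0.00039). Insig1, which is both a brake on SREBP and a target of it, ran from 20.4 to 85.8 CPM in non-responder tumors and from 20.4 to 41.1 CPM in responder tumors. The ranges of Insig1 overlapped, and its log2 fold change of -0.46 ± 0.14 had the largest adjusted p of the 10 (edgeR, 0.043).

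Hmgcs1, which condenses acetoacetyl-CoA into HMG-CoA, ran from 17.9 through a median of 24.5 to 41.5 CPM in non-responder tumors and from 12.2 through 20.1 to 30.01 CPM in responder tumors. For Hmgcs1 7 responder tumors were below all non-responder tumors, and the log2 fold change was -0.35 ± 0.10 (SE, edgeR adjusted p = 0.026). Mvd, the mevalonate diphosphate decarboxylase, ran from 7.41 through 12.0 to 17.7 CPM and from 5.77 through 8.67 to 14.1 CPM. It was below the non-responder median in 18 of 20 responder tumors, with a log2 fold change of -0.46 ± 0.11 (edgeR adjusted p = 0.0064).
Idi1 ran from 15.8 through 28.5 to 47.6 CPM in non-responder and from 7.74 through 20.02 to 32.9 CPM in responder tumors. The 2 groups overlapped, with 6 non-responder tumors above every responder tumor, and the log2 fold change was -0.59 ± 0.13 (edgeR adjusted p = 0.0044).

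Sqle, the squalene epoxidase, had the largest change in size of the 29. It ran from 4.81 through 13.1 to 18.2 CPM in non-responder tumors and from 2.57 through 6.89 to 15.3 CPM in responder tumors, and 19 of 20 responder tumors were below the non-responder median. The log2 fold change was -0.76 ± 0.18 (SE, edgeR adjusted p = 0.0066). Cyp51, the lanosterol demethylase, ran from 14.9 through 21.0 to 47.8 CPM and from 8.08 through 15.2 to 25.4 CPM. For Cyp51 9 responder tumors lay below all non-responder tumors, at a log2 fold change of -0.54 ± 0.13 (edgeR adjusted p = 0.0088).
Hsd17b7, a sterol ketone reductase, was a low transcript, from 1.05 to 5.93 CPM in non-responder and from 0.484 to 3.51 CPM in responder tumors. Of the 18 non-responder tumors 11 were nevertheless above every responder tumor (log2 fold change -0.61 ± 0.16, edgeR adjusted p = 0.014). Msmo1 changed by -0.34 ± 0.10 (edgeR adjusted p = 0.027).

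Fasn ran from 3.15 through 10.2 to 16.4 CPM in non-responder and from 2.76 through 7.56 to 15.2 CPM in responder tumors. Of the 20 responder tumors 18 were below the non-responder median, while the ranges overlapped almost whole, and the log2 fold change was -0.52 ± 0.15 (SE, edgeR adjusted p = 0.025). The LXR and export genes had positive values that did not pass the threshold: 0.32 ± 0.18 for Abca1, 0.34 ± 0.15 for Abcg1, 0.47 ± 0.18 for Mylip and 0.12 ± 0.16 for Nr1h3 (edgeR adjusted p from 0.11 to 0.74). A pair of sterol enzymes also had positive values, Pmvk at 0.17 ± 0.11 and Ebp, the sterol isomerase, at 0.10 ± 0.09 (edgeR adjusted p = 0.43 and 0.62).

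**Figure D2:**
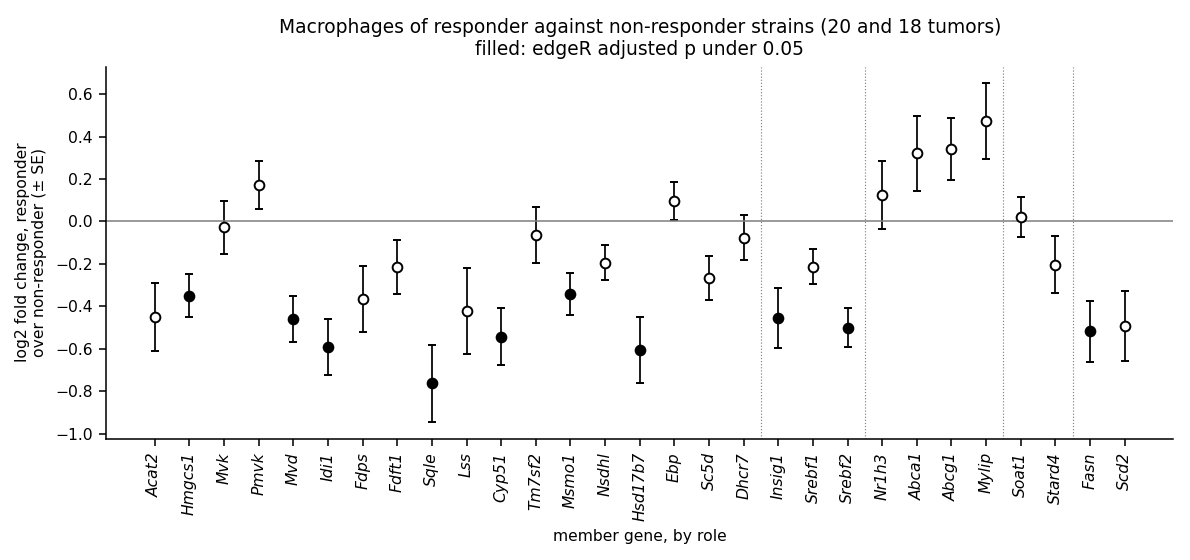
Log2 fold change of 29 members in macrophages, responder over non-responder strains, with SE (20 and 18 tumors); filled points have an edgeR adjusted p under 0.05 and dotted lines divide the 5 roles. The 10 filled points lie between -0.34 and -0.76, and the 4 LXR and export genes lie above 0 without passing.

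**Figure D3:**
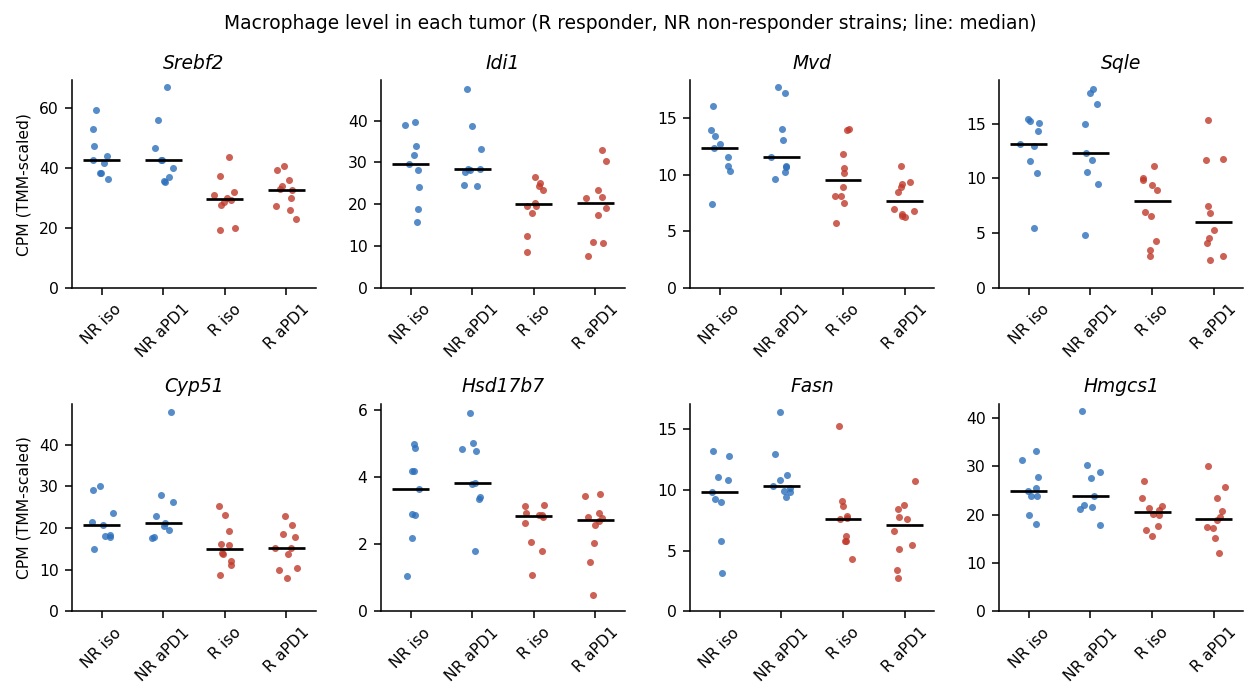
TMM-scaled CPM of the 8 members of smallest adjusted p in macrophages of each tumor (points), by class and treatment, with the median as a line. Responder medians are lower under both antibodies, and single tumors of the classes overlap in every panel.

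Tumors of 1 strain share a genome, so that the class difference rests on 3 strains against 3. The means of all 3 responder strains lay below those of all 3 non-responder strains for 10 of the 29 members tested, beside 5.08% of all genes, and above them for 0 of 29, also beside 5.08% of all genes. With counts summed to 1 value per strain, 0 members passed (edgeR, 4 genes or 0.0281% in all; Srebf2 -0.46 ± 0.14, unadjusted p = 0.016, adjusted p = 0.86). Among isotype tumors alone 0 members passed (edgeR, 18 genes or 0.164% in all; Srebf2 -0.54 ± 0.13, unadjusted p = 0.00038, adjusted p = 0.15), and among aPD1 tumors alone 4 of 29 passed, beside 5.36% of all genes, Srebf2, Mvd and Fasn lower and Abcg1 higher. Without CC036, the non-responder strain with the highest Srebf2, 4 of 29 members passed, beside 5.61% of all genes, Srebf2, Idi1 and Mvd lower and Mylip higher. Without CC002, 6 of 29 passed, beside 5.02% of all genes, and without pool 2 or pool 9, 6 and 5 of 29 passed, beside 3.58% of all genes in each. Of the 16 fits that left out 1 pool or 1 strain, Srebf2 and Idi1 passed in 16, Mvd in 15, Cyp51 in 14, Sqle and Hsd17b7 in 13, Msmo1 in 9, Hmgcs1 in 7, Fasn in 6 and Insig1 in 5. Over all 30 members, 21 had a lower mean in responder tumors within pools 1 to 6 and 24 within pools 7 to 12. The median log2 differences were -0.14 and -0.42, and the same tumors chose the 10. The share of all genes with a lower mean was not computed for these pool sets. Of the classed hosts, CC079 lay only in pools 1 to 6, and CC036 and CC075 only in pools 7 to 12. Host and pool set can therefore not be told apart here.

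Other features of the macrophage sums differed in median between the classes, with overlapping ranges, and these differences were not tested. The 5 proliferation genes had a median sum of 437 CPM in non-responder and 322 CPM in responder tumors, with ranges of 67.2 to 643 and 61.7 to 608 CPM. Cluster 26, with Srebf2 at 36.3 CPM against 43.3 CPM in cluster 2, made up a median of 33.0% of macrophages in responder and 26.0% in non-responder tumors. The ranges were 14.1 to 51.0% and 9.34 to 46.6%. Cluster 27, with the lowest Srebf2 of all clusters at 24.9 CPM, went the other way, with medians of 5.74% and 8.38%. The part of these in the result was not tested. The class difference was also fitted in single clusters. In cluster 2 alone 7 of 25 members tested passed, beside 3.89% of all genes, 6 lower (Srebf2, Idi1, Sqle, Cyp51, Fdps and Fasn) and Abca1 higher by 0.71 ± 0.20 (edgeR adjusted p = 0.029). In cluster 5 alone, which is outside the macrophage sums, 8 of 20 passed, beside 4.41% of all genes, 6 lower and Abca1 and Mylip higher, by 0.80 ± 0.18 and 0.74 ± 0.18 (edgeR adjusted p = 0.0059 and 0.0083). Cluster 5 made up a median of 12.6% of all cells in responder and 13.4% in non-responder tumors.

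The median of the sterol synthesis sum was lower in responder tumors in 10 of 10 clusters (the 9 macrophage clusters and cluster 5). That of the LXR and export sum was higher in 10 of 10, though no gene of this group passed in the macrophage sums. The clusters are parts of the same tumors, and the sterol sum holds the enzymes called above, so they are not separate repeats. Cluster 15 counted here rests on 1 responder and 3 non-responder tumors with at least 20 of its cells. In cluster 2 the sterol synthesis sum had a median of 287 CPM in responder and 345 CPM in non-responder tumors, and the LXR and export sum 263 and 178 CPM. In cluster 17, with the highest proliferation sum of the macrophage clusters, the sterol synthesis medians were 297 and 342 CPM. Markers of other cells were also summed in the macrophage counts, with non-responder tumors given first. The 6 cDC2 markers summed to 37.7 to 257 CPM (median 95.5) and 42.0 to 199.9 CPM (median 76.3), and cDC2 had more sterol synthesis transcripts than macrophages (above). The 6 cDC1 markers summed to 265 to 574 and 306 to 533 CPM (medians 365 and 404), and Xcr1 was at 0 in 6 of 38 tumors. Granulocytic markers summed to 65.2 to 206 and 60.04 to 325 CPM (medians 98.1 and 109.2), and B markers to 11.6 to 134 and 21.6 to 175 CPM (medians 39.8 and 50.6). Migratory dendritic cell markers summed to 10.8 to 34.5 and 8.65 to 45.5 CPM (medians 16.7 and 13.3) and fibroblast markers to 2.10 to 16.9 and 2.97 to 14.4 CPM (medians 7.23 and 7.10). The 6 MC38 or epithelial markers summed to 2.10 to 7.80 CPM in non-responder and 0 to 9.06 CPM in responder tumors (medians 3.62 and 3.04). Of these, Shisal2b was at 0 in 2 of 38 tumors and Epcam in 6, while the 4 keratins were at 0 in 12 to 34. The 9 T/NK markers summed to 3.63 to 31.5 and 3.58 to 67.3 CPM (medians 9.09 and 10.8). Regulatory T cell markers (Foxp3, Il2ra, Ikzf2 and Ctla4) had medians of 9.86 and 15.3 CPM, with ranges of 6.16 to 19.3 and 7.99 to 29.2, and were at 0 in 0 to 3 of 38 tumors. Cd8a and Cd8b1 summed to medians of 0.564 and 0.955 CPM, and the 3 NK markers to 0.847 and 0.518 CPM. The 6 pDC markers summed to 114 to 189 and 109.6 to 179 CPM (medians 154 and 139.7), of which Tcf4 had a median of 137 CPM. Ccr9 was at 0 in 0 of 38 tumors and Cox6a2 in 1, and Siglech, Ly6d and Klk1 in 21, 29 and 34. Macrophage sums held 845682 to 9675830 UMIs in non-responder and 341196 to 10534300 in responder tumors. The part of these markers and depths in the class difference was not tested.

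**Figure D4:**
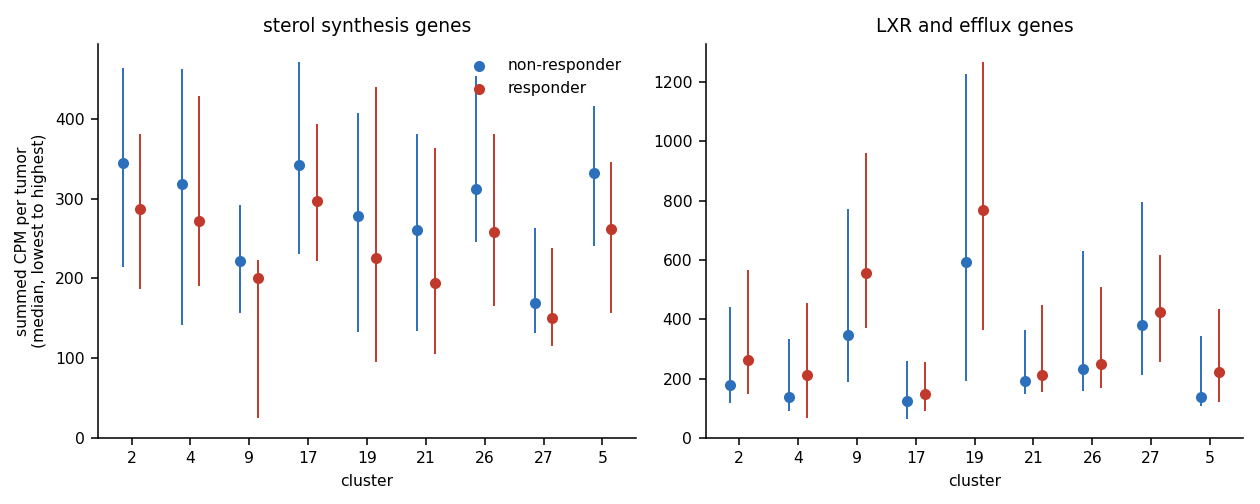
Summed CPM of the 18 sterol synthesis genes (left) and the 4 LXR and export genes (right) in each macrophage cluster and cluster 5, for responder (red) and non-responder (blue) tumors with at least 20 cells of the cluster; points are medians and lines run from the lowest to the highest tumor, with clusters of under 5 such tumors in a class not drawn. Responder medians are lower on the left and higher on the right, and the ranges overlap in every cluster drawn.

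The next comparisons asked whether 48 h of aPD1 changed these genes in macrophages. The fits within each class, and of the difference between classes, held no term for host or pool. Each aPD1 tumor had an isotype partner of its host and pool, and with that pair as the block no call of a member changed. Effects and shares below are from the fits without that block, and the share of all genes with it is not given. An absence of calls does not show that nothing changed. In responder strains 0 of 29 members were called and 0% of all genes were (edgeR, 10 against 10 tumors; 2 members and 668 of 10998 genes at an unadjusted p under 0.05; DESeq2, 0 members). Mvd ran from 5.77 through 9.57 to 14.1 CPM under isotype and from 6.29 through 7.72 to 10.8 CPM under aPD1, a log2 fold change of -0.36 ± 0.14 (SE, edgeR adjusted p = 0.80). Abcg1 ran from 35.4 through 46.5 to 69.2 CPM and from 32.9 through 53.3 to 85.1 CPM, at 0.36 ± 0.16 (edgeR adjusted p = 0.80). Both ranges overlapped between antibodies. Abca1 followed at 0.40 ± 0.22 (edgeR adjusted p = 0.86).

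In non-responder strains 0 of 29 members and 0% of all genes were called (edgeR, 9 against 9 tumors; 0 members and 80 of 11177 genes at an unadjusted p under 0.05; DESeq2, 0 members). Smallest in p were Ebp at 0.15 ± 0.12, Abcg1 at -0.24 ± 0.22 and Fasn at 0.15 ± 0.16 on the log2 scale (edgeR adjusted p = 1.00 for each). The test of the difference between the 2 effects also called 0 of 29 members and 0% of all genes (edgeR, 2 members and 608 of 11598 genes at an unadjusted p under 0.05; DESeq2, 0 members). The 3 members of smallest p in that test had differences of -0.44 ± 0.21 for Mvd, 0.57 ± 0.27 for Abcg1 and 0.54 ± 0.34 for Abca1, responder minus non-responder effect (edgeR adjusted p = 0.91 for each). Over all 8 hosts, 0 of 29 members and 0% of genes were called (edgeR, 24 against 24 tumors; 0 members and 328 of 12272 genes at an unadjusted p under 0.05; DESeq2, 0 members). Sc5d, a sterol desaturase, had the smallest p, at -0.19 ± 0.10, before Pmvk at 0.12 ± 0.09 and Mvd at -0.13 ± 0.09 (edgeR adjusted p = 1 for each). No other pathway gene was called in any of these 4 tests.

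Differences among hosts were tested over all 8 hosts. Each host lay in only some pools, such as CC079 in pools 1, 2 and 5 and CC036 in pools 8, 9 and 10. An effect of host and an effect of pool can therefore not be fully told apart. In macrophages 20 of the 29 members tested differed among the 8 hosts (edgeR F test over 7 coefficients, 48 tumors), beside 50.8% of all genes, and 16 of 32 other pathway genes did, led by Ggps1 and Fads1 (edgeR adjusted p = 9.1e-06 and 1.5e-05). The 9 that did not pass were Ebp, Fdps, Srebf1, Abca1, Sc5d, Nsdhl, Dhcr7, Tm7sf2 and Mvk.

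Srebf2 averaged 52.4 ± 8.39 CPM in CC036 and 48.0 ± 7.29 in B6 (SD, n = 6 each), 42.7 ± 8.77 in CC080 and 39.2 ± 2.81 in CC079, and 33.4 ± 6.13, 31.3 ± 6.41 and 29.2 ± 6.85 in CC075, CC002 and CC001 (edgeR adjusted p = 1.3e-05; n = 6, and 8 for CC001). The 3 responder hosts differed from each other by less than 1 SD, and all 6 CC036 tumors, from 44.1 CPM up, lay above all 20 responder tumors. In CC007 3 tumors were at 45.5, 47.1 and 55.5 CPM, and the other, with 27 macrophages, had no Srebf2 count. Insig1 averaged 54.1 ± 18.8 CPM in CC007 (n = 4) and 49.6 ± 17.97 in CC036, and 24.9 ± 5.72 in CC001 (edgeR adjusted p = 2.1e-05). In both of the high hosts 1 tumor above 80 CPM stood away from the rest. The CC007 mean of Insig1 includes the tumor with 27 macrophages, where single counts weigh heavily. The non-responder CC079 had a mean Insig1 of 26.1 CPM, below the responder CC075 at 29.2 CPM. Insig1 thus did not order the strains by class.

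Sqle was at 32.9 CPM in the CC007 tumor with 27 macrophages, on 2 counts, and at 8.52, 11.7 and 12.3 CPM in the other CC007 tumors. It averaged 14.8 ± 1.95 CPM in CC079 and 14.4 ± 2.92 in CC036, against 5.47 ± 1.94 in CC002 and 5.81 ± 3.70 in CC075 (SD, n = 6 each, edgeR adjusted p = 0.00016). CC001, a responder host, was at 9.77 ± 3.31, above the mean of the non-responder CC080 at 9.19 ± 3.38, so that Sqle did not order the strains by class. Idi1 averaged 14.4 ± 6.81 CPM in CC075, the lowest host, and 29.7 to 30.9 in the 3 non-responder hosts (edgeR adjusted p = 0.0011). Stard4 averaged 26.2 ± 6.68 in CC007 and 10.8 ± 3.77 in CC075 (edgeR adjusted p = 0.00026).
Scd2, the desaturase that these macrophages transcribe, averaged 31.2 ± 3.21 CPM in CC007 and 13.6 ± 4.49 in CC002 (edgeR adjusted p = 0.0012). The CC007 means of Stard4 and Scd2 include the tumor with 27 macrophages, where single counts weigh heavily.

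Abcg1 and Mylip, of the LXR and export genes, ordered the hosts differently, while Abca1 did not pass among hosts. Nr1h3, of the same group, also passed (edgeR adjusted p = 0.030). Abcg1 was highest in CC075 at 60.3 ± 19.1 CPM and in B6 at 58.4 ± 13.6, and lowest in CC079 at 29.2 ± 4.75 (SD, n = 6 each, edgeR adjusted p = 0.00056). Mylip was highest in B6 at 83.8 ± 33.4 and CC075 at 80.7 ± 36.2 and lowest in CC079 at 33.5 ± 6.91 (edgeR adjusted p = 0.0007). For both genes all 6 CC079 tumors lay in a narrow low range, while B6 and CC075 tumors were spread widely. CC036, a non-responder host, had Mylip at 67.2 ± 22.9, above CC001 and CC002. With pools as blocks 8 of 29 members passed, beside 12.1% of genes.

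**Figure D5:**
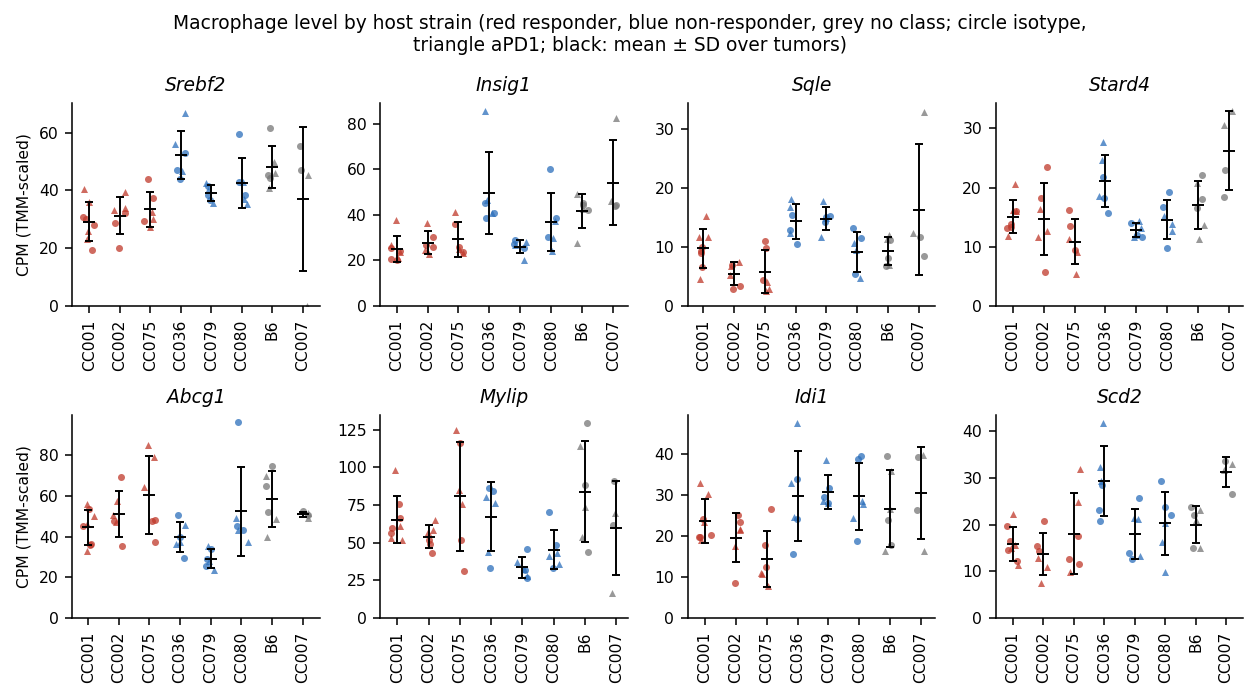
TMM-scaled CPM in macrophages of the 8 members of smallest adjusted p among hosts; each point is a tumor (circle isotype, triangle aPD1; red responder, blue non-responder, grey no class) and black marks give mean ± SD. Srebf2 is lowest in the 3 red hosts, Sqle in CC002 and CC075, and Mylip in CC079.

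Across the 48 tumors, 5 pairs of members were examined in macrophages (log2 CPM, permutation test with 100000 resamples, two-sided, adjusted over 5 pairs). Tumors were permuted freely although they share hosts and libraries, and members of these pairs differed by host, so the p-values do not set host apart. Hmgcs1 and Sqle, 2 enzymes of the same route, correlated (Pearson r = 0.62, permutation p = 2.0e-05, adjusted 0.0001; Spearman rho = 0.68, permutation p = 1.0e-05, the smallest possible, adjusted 5.0e-05). Within pools 1 to 6 r was 0.73 and within pools 7 to 12 it was 0.61 (24 tumors each), and it was 0.53 without the 2 tumors farthest from the median Hmgcs1. Srebf1 and Scd2 correlated too (r = 0.46, permutation p = 0.001, adjusted 0.0017; rho = 0.43, permutation p = 0.0025, adjusted 0.0031), with r of 0.55 in both pool sets and 0.41 without the 2 farthest tumors.

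Srebf2 and its target Hmgcs1 gave opposite answers by the 2 measures: Pearson r was -0.19 (permutation p = 0.17, adjusted 0.17) and Spearman rho 0.56 (permutation p = 8.0e-05, adjusted 0.00015). One CC007 tumor, in pools 1 to 6, had 27 macrophages and no Srebf2 count. Without the 2 tumors farthest from the median Srebf2, that one among them, r was 0.71, and within pools 1 to 6 and 7 to 12 it was -0.45 and 0.73. The relation measured by r thus rests on those 2 tumors. Abca1 and Abcg1, the 2 exporters, correlated over all tumors (r = 0.47, permutation p = 0.00093, adjusted 0.0017; rho = 0.55, permutation p = 9.0e-05, adjusted 0.00015) and with r = 0.51 without the 2 farthest tumors. In pools 1 to 6 their r was 0.15 (permutation p = 0.46), and in pools 7 to 12 it was 0.55. Hmgcs1 and Abca1, synthesis against export, had r = -0.24 (permutation p = 0.098, adjusted 0.12) and rho = -0.31 (permutation p = 0.035, adjusted 0.035), and rho did not pass in any alternative run (adjusted 0.071 in pools 1 to 6, 0.052 in pools 7 to 12, 0.050 without the 2 farthest tumors and 0.15 under library-size scaling). Pearson r was -0.33 in pools 1 to 6, -0.43 in pools 7 to 12, where it passed (permutation p = 0.034, adjusted 0.034), -0.22 without the 2 farthest tumors and -0.085 under library-size scaling.

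In T/NK cells no member passed the main class test, and 1 passed with pools as blocks. The share of all genes called in that second fit is not given here. T/NK sums held 80784 to 2256000 UMIs in the classed tumors, and 16 of 30 members passed the filter of the class fit. None was called, beside 2.21% of all genes (0.984% higher and 1.23% lower in responders; edgeR, 20 against 18 tumors, 1 member and 1016 of 6908 genes at an unadjusted p under 0.05; DESeq2, 0 members). Stard4 had the smallest p, at a log2 fold change of 0.30 ± 0.14 (SE, edgeR adjusted p = 0.31), before Soat1 at -0.27 ± 0.15 and Srebf2 at -0.16 ± 0.12 (edgeR adjusted p = 0.42 and 0.60). Whether the class difference of Srebf2 in macrophages is larger than in T/NK cells was not tested. None of 19 other pathway genes was called.

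aPD1 changed 0 of 21 members in T/NK cells over all hosts and 0% of all genes (edgeR, 47 tumors, 1 member and 371 of 8458 genes at an unadjusted p under 0.05; DESeq2, 0 members). Sc5d again had the smallest p, at -0.33 ± 0.14, before Ebp at 0.18 ± 0.13 and Srebf2 at 0.13 ± 0.11 (edgeR adjusted p = 1 for each). Among hosts 4 of 21 members differed in T/NK cells (edgeR F test over 7 coefficients, 47 tumors), no larger a share than the 25.3% of all genes. Of the other pathway genes 5 of 23 differed, led by Npc2, Smpdl3a and Lpin1 (edgeR adjusted p = 9.0e-07, 0.0012 and 0.0016). Mvd averaged 16.8 ± 6.08 CPM in T/NK cells of CC079 hosts and 2.85 ± 1.78 in those of CC075 (SD, n = 6 each, edgeR adjusted p = 0.012). All 6 CC079 tumors, from 9.30 CPM up, lay above the means of the other 7 hosts, which were 2.85 to 7.48.
Stard4 was highest in CC001 at 56.4 ± 12.6 and lowest in CC079 and CC007 at 28.2 in both (edgeR adjusted p = 0.010). Mylip was lowest in CC079 at 12.2 ± 7.14, as in macrophages, and highest in B6 at 39.8 ± 19.6 (edgeR adjusted p = 0.018). Fdft1, the squalene synthase, was highest in CC001 at 23.0 ± 8.55 and CC079 at 22.7 ± 15.9 (edgeR adjusted p = 0.024). With pools as blocks 0 of 24 members passed, beside 7.07% of genes.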

How the data were processed

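MC38 tumors were profiled with 10x Genomics 5′ single-cell chemistry in 12 libraries of 4 hashtagged specimens. The authors aligned reads with Cell Ranger to GRCm38 (mm10) with GENCODE annotation, assigned hashtags, removed cells of high mitochondrial or ribosomal share, clustered cells in Seurat 5.0.1 after batch correction, and deposited raw UMI counts per gene and cell with library, strain, treatment and cluster labels. No doublet caller was run here. The tumor (1 specimen of 1 pool) was the replicate, and p-values measure the spread between tumors. Counts were summed per tumor over macrophage or T/NK clusters (at least 20 cells), filtered with filterByExpr, TMM-scaled and tested with edgeR 4.0.16 quasi-likelihood fits, Benjamini-Hochberg adjusted over all genes tested, at 0.05; SE was the log2 fold change divided by the root of F. DESeq2 1.42.0 was an alternative. The class and strain fits in macrophages were run on simulated counts of independent tumors. Such counts cannot show what shared strains or pools do to the p-values. Depth is given as UMIs per tumor, and intervals were not computed. Full values went to every member called, or to the 8 of smallest adjusted p, or, with none called, to the 3 of smallest p. Clusters were named where at least 3 and 50% of the markers of a type reached 100 CPM and no other type led the 10 top genes. Gene and promoter positions came from RefSeq and GENCODE for GRCm38; the release was not that of the authors. F1 reads were aligned to the B6 genome, and its effect on single genes was not tested. The members and gene lists were chosen with earlier results of these data known. Values of 1 called pathway gene outside the members are not reported here.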

Additional observations from a re-analysis of the deposited data

Results flagged for a closer look

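Among the 10 members that differed between classes, 40 groups (each member in macrophages of 1 class and 1 antibody) were examined for a tumor far from the rest of its group, which chance gives in about 1 of 20 groups, and 6 were found. Of these, 4 were the same CC036 tumor treated with aPD1 in pool 9, the highest of 9 for Cyp51 at 47.8 CPM (the next tumor at 27.8), Fasn at 16.4 (12.9), Msmo1 at 50.2 (36.0) and Insig1 at 85.8 CPM (46.4). In non-responder isotype tumors Sqle was lowest in a CC080 tumor of pool 4 at 5.44 CPM, with the next at 10.5. In responder isotype tumors Fasn was highest in a CC001 tumor of pool 4 at 15.2 CPM, with the next at 9.07. Without pool 9, 5 members passed in place of 10, while the share of all genes that passed went from 5.98% to 3.58%, and Srebf2, Idi1, Mvd, Sqle and Cyp51 were the 5.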

How the results depend on the processing

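Counts of members that passed are given. The share of all genes that passed also moved between fits, so the counts alone do not measure how stable the members are. For class in macrophages that share was 5.98% in the main fit and 0.0281% with counts summed per strain. It was 0.164% in isotype and 5.36% in aPD1 tumors, and 3.58% without pool 2 or pool 9. In clusters 2 and 5 alone it was 3.89% and 4.41%. Shares for its other alternatives are not given. For the class difference in macrophages (10) the values were 0 with counts summed per strain, 0 in isotype tumors and 4 in aPD1 tumors, and 4 to 13 when 1 pool or strain was left out; library-size scaling, DESeq2, no filter, the pool-set term, pools as blocks, at least 100 cells, clusters 2 or 5 alone and 2 alternatives chosen after seeing the data (cluster 5 added, and the 2 tumors of 1 animal identifier left out) gave 7 to 12. Each of the 10 kept its negative sign in every alternative it could be fitted in. Strain differences in macrophages (20) fell to 8 with pools as blocks and were 17 to 22 when 1 pool was left out. The share of all genes was 50.8% in the main strain fit and 12.1% with pools as blocks. In T/NK cells the class count (0) was 1 with pools as blocks and 0 to 1 when 1 pool or strain was left out, and the strain count (4) was 2 with the pool-set term, 0 with pools as blocks, 2 with at least 100 cells, 0 in cluster 3, 0 in cluster 8 and 1 to 6 when 1 pool was left out. Leaving out T/NK clusters 3 and 13, chosen after seeing the data, gave 0 for class and 1 for strain. In T/NK cells the share of all genes was 2.21% in the main class fit. For strain it was 25.3% in the main fit and 7.07% with pools as blocks. Shares for the other strain and T/NK alternatives are not given. Those counts therefore do not show whether members moved more than other genes. The cause of these shifts in counts was not tested. The aPD1 and interaction counts of members were 0 in every alternative run. Signs turned for the aPD1 effect over all hosts of Mvd (0.014) and Sc5d (0.16) in cluster 5, and of Srebf2 (-0.16) in T/NK cluster 8, and for Pearson r of Srebf2 and Hmgcs1, which was 0.73 in pools 7 to 12 and 0.71 without the 2 farthest tumors. In pools 7 to 12, 5 pairs passed by Pearson r, against 3 overall. For aPD1 the block was the pair of tumors of 1 host in 1 pool, and it changed no call of a member. Scd1 did not pass the low-count filter in macrophages, and in T/NK cells 16 of 30 members passed it for the class test and 21 for the aPD1 and strain tests over all hosts.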

Other observations

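Ch25h and Plin2, genes of lipid handling outside the 30, were singled out after their values were seen. Ch25h, which makes 25-hydroxycholesterol, a ligand of LXR and a brake on SREBP, stood at 159.5 CPM in cluster 26, 151 in cluster 21 and 98.0 in cluster 17, and at 6.18 in cluster 4. Plin2, a coat protein of lipid droplets, was highest in cluster 27 at 742 CPM, where Soat1 was also highest, and stood at 519 CPM in cluster 9. Between classes, Ch25h had a log2 fold change of 0.43 ± 0.27 and Plin2 of 0.20 ± 0.15 in macrophages, and neither passed (edgeR adjusted p = 0.41 and 0.52).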
